A study of Mus musculus with 12 samples.

Results

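The genes described here are 42 interferon-stimulated genes, taken by symbol from a named list of 43 in a table of 22183 genes of the mouse aorta. The symbol Mx2 matched no row of the table and was not analysed here. All 42 genes passed the filter on low counts in every comparison, and the lowest count of any of them in any library was 10. The aortas came from male ApoE-/- mice, 8 weeks old at the start, so that all 3 groups lacked apolipoprotein E, a protein that clears lipoproteins from blood. The NFD group was fed a diet of 5% fat without cholesterol and was given saline by gavage. The HFD group was fed 16% fat and 0.25% cholesterol and was also given saline. The HFD+TUDCA group had the diet of the HFD group and, after 8 weeks of it, tauroursodeoxycholic acid (TUDCA, a taurine-conjugated bile acid) at 1000 mg/kg by gavage daily for 4 weeks. Each group had 4 libraries, and the study used 60 mice. The labels do not say whether a library came from 1 mouse or a pool, so p-values measure the spread between these libraries, which may be in part technical.

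Interferons are secreted proteins that cells release when they detect viral or misplaced nucleic acid, and that bind receptors on the same and on neighbouring cells. Type I interferons signal through the kinases JAK1 and TYK2 to a complex that contains STAT2 and IRF9 and binds a DNA element called ISRE in the promoters of its targets. Interferon gamma, made mainly by T and NK cells, signals through JAK1 and JAK2 and acts on an element called GAS. The induced proteins sense nucleic acid, degrade RNA, block translation or virus exit, and attack vacuoles that hold microbes. In atherosclerotic aorta these genes are known to be active in macrophages and in smaller subsets of lesion leukocytes.

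The sequencing gave 15199317 to 22061692 counts per library and detected 16532 to 17121 genes. Levels are given in CPM (counts-per-million, scaled with TMM factors). The ± beside a level is the SD over 4 libraries, and beside a log2 fold change the SE. A count of 0 allowed up to 0.151 to 0.201 CPM (3 counts), for counting error only. Apoe had 11.2 to 34.1 CPM in all 12 libraries, which does not check the genotype, since gene-level counts are blind to the deleted exons. The tissue label was checked with markers: 6 smooth muscle genes summed to 1960 to 5106 CPM and 6 endothelial genes to 973 to 1535 CPM. The libraries also held other tissue to varying degree, with 6 heart muscle genes at 3010 to 8186 CPM in NFD, 315 to 2314 CPM in HFD and 20.4 to 9251 CPM in HFD+TUDCA. The 4 airway epithelium genes summed to 688 to 2100 CPM in NFD, 0.613 to 557 CPM in HFD and 0.912 to 1110 CPM in HFD+TUDCA. The 4 brown adipocyte genes summed to 2467 to 3797 CPM in NFD, 677 to 2752 CPM in HFD and 2710 to 6428 CPM in HFD+TUDCA. The part of these tissues in the results below was not tested. Libraries HFD 4 and HFD+TUDCA 4 stood apart for the interferon-stimulated genes, being mostly the highest and the lowest of their groups, and the main counts are given with and without them.

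The promoters of these genes share sequence that their choice by name did not use. RefSeq promoters (build GRCm38.p6, 250 bases before to 50 after a start) were found by symbol for 32 of the 42 genes, in 38 windows. The ISRE letters searched were TTTCNNTTTC, or GAAANNGAAA on the other strand, and they were present in 60.5% of these windows against 3.44% of all 32851 promoter windows. The GAS letters searched were TTCNNNGAA, which reads the same on both strands, and they were present in 21.1% against 8.30%. An ISRE match was present in 21 genes and a GAS match in 8, with 5 genes having both and 8 neither. Both motifs can overlap each other, and a match is a description of letters, not of a bound site. Among genes called below, Ifi205, Oas1a and Oas3 had an ISRE match, and Irf7 and Slfn4 had none in this window. No window was found by symbol for Zbp1, Ifi204 and Oas2, which were called as well. The windows printed here are those of the genes with an ISRE match that had the lowest p in HFD against NFD, with 20 bases on each side, 5′ to 3′ on the gene's strand, and the matched bases in capitals. The promoter of Isg15, with 3 matches, was added after its values were seen. For Ifi205, which has a match on either side of its start, and for Trim30a, which has more than 1 start, the match that lies before a start is shown.
Ifi205, chr1:174031860-174031909, minus strand: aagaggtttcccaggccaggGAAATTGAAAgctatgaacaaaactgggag
Oas3, chr5:120777705-120777754, minus strand: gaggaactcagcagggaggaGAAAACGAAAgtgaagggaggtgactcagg
Oas1a, chr5:120907510-120907565, minus strand: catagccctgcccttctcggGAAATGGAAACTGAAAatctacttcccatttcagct
Gbp2, chr3:142620584-142620633, plus strand: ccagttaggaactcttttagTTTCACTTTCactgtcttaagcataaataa
Trim30a, chr7:104465200-104465249, minus strand: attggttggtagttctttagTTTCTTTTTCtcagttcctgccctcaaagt
Irgm1, chr11:48871415-48871470, minus strand: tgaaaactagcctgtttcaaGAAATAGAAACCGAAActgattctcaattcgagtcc
Isg15, chr4:156200855-156200916, minus strand: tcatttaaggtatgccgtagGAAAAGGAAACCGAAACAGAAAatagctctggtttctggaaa
In Oas1a, Irgm1 and Isg15 neighbouring matches share a GAAA half-site, so that they form 1 run of capitals.

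HFD against NFD addressed the effect of the high-fat diet on the aorta. The interferon-stimulated genes that passed the test were an interferon regulatory factor (Irf7), cytosolic nucleic acid sensors (Zbp1, Ifi204, Ifi205), oligoadenylate synthetases (Oas1a, Oas2, Oas3) and a Schlafen gene (Slfn4). These 8 of 42 genes rose between 2.45-fold and 9.22-fold in HFD, none fell and 34 did not pass (edgeR quasi-likelihood test, Benjamini-Hochberg adjusted p under 0.05), where 3.18% of all 14918 genes tested were called higher. The log2 fold change was above 0 for 41 of the 42 genes, with a median of 1.29 against 0.04 over all genes tested. In 16 genes every HFD library lay above every NFD library, where this was so for 8.10% of all genes tested.

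Without HFD 4, 10 of the 42 genes were called higher, against 3.10% of all genes. These were the same 8 with Oasl1 and Isg15 added, while the median log2 fold change of the 42 genes was 0.73. The same 16 genes had no overlap between HFD and NFD without HFD 4, where 10.9% of all genes had none. HFD 4 was the lowest HFD library for 0 of the 42 genes, so leaving it out could not change this number. Slfn4 and Ifi205 were called in each of the 8 fits that left out 1 library, and they were the only members of the list called without NFD 1, NFD 2, NFD 3 or NFD 4 (2 genes each time, against 0.984%, 1.64%, 0.820% and 1.37% of all genes). The number called was 6 without HFD 1 (2.19% of all genes), 12 without HFD 2 (3.19%) and 18 without HFD 3 (5.01%). DESeq2 called 19 of the 38 genes to which it gave an adjusted p, against 5.98% of all genes. It gave none to Usp18, Isg15, Oasl1 and Ifit3, in each of which HFD 4 is flagged below as an outlying library. With the replicate number as a block 6 were called, against 2.96% of all genes, and the block ended the call of Irf7 (adjusted p = 0.0511), Zbp1 (0.0893) and Oas3 (0.0840) and gave one to Oasl2 (0.0468).

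**Figure D1:**
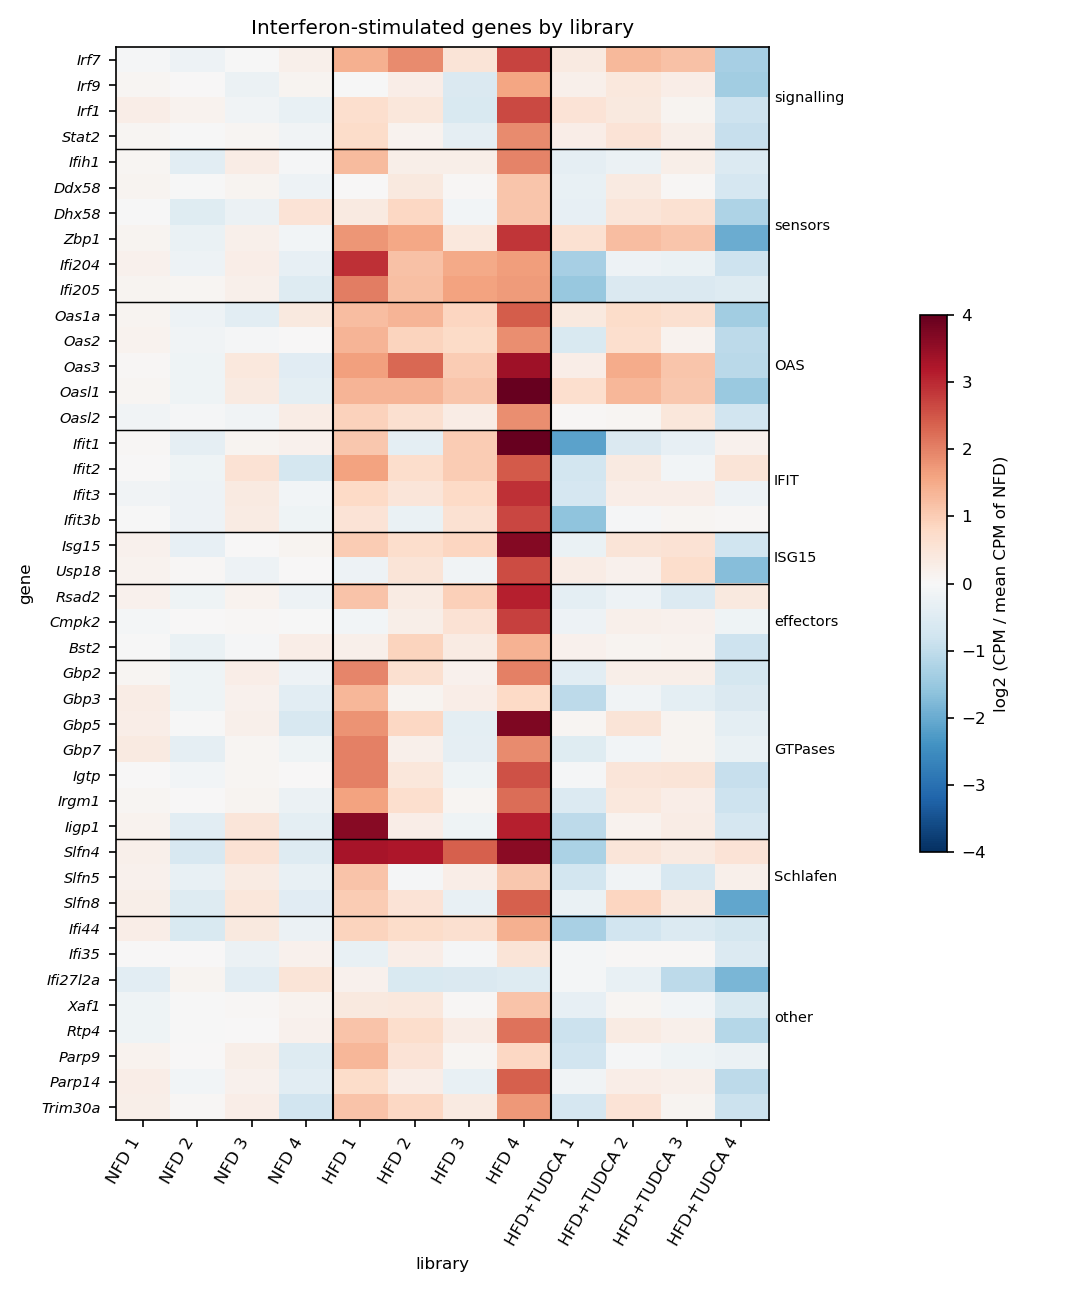
Level of each of 42 interferon-stimulated genes (rows, grouped by role) in each of 12 libraries (columns), as log2 of CPM over the mean CPM of NFD, with red above and blue below that mean. HFD 4 is the darkest red column, highest within HFD for 34 genes, and HFD+TUDCA 4 is the lowest of its group for 27.

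Among the genes of interferon signalling, Irf7 encodes a transcription factor that drives type I interferon genes and is itself induced by interferon. Irf7 (ENSMUSG00000025498, GENCODE M21 on GRCm38, chromosome 7, 141262706 to 141266481, minus strand) had 42.5, 37.7, 43.2 and 50.2 CPM in NFD 1 to 4 and 116, 160, 61.5 and 281 CPM in HFD 1 to 4. In HFD+TUDCA 1 to 4 it had 55.5, 107, 98.1 and 17.3 CPM. All HFD libraries were above all NFD libraries, HFD 4 was the highest, and HFD+TUDCA 4 was the lowest of all 12. The rise was 3.58-fold (log2 fold change 1.84 ± 0.39, edgeR adjusted p = 0.0316), and without HFD 4 the log2 fold change was 1.35 ± 0.28 (adjusted p = 0.0297). Stat2 and Irf9 encode subunits of the complex that binds ISRE, and Irf1 encodes a factor induced strongly by interferon gamma. None of these passed, at log2 fold changes of 0.86 for Stat2, 0.55 for Irf9 and 1.29 for Irf1. Irf1, shown for its outlying library and chosen after its values were seen, had 107, 92.7, 44.5 and 419 CPM in HFD 1 to 4 against 55.4 to 80.8 CPM in NFD. Without HFD 4 the log2 fold change of Irf1 was 0.24, that of Stat2 was 0.21 and that of Irf9 turned to -0.10.

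The nucleic acid sensors had 3 of 6 genes called. Zbp1 encodes a sensor of Z-form nucleic acid that can start cell death, and Ifi204 and Ifi205 belong to the PYHIN family of DNA-binding proteins in the mouse. Zbp1 (ENSMUSG00000027514, chromosome 2, 173206612 to 173218923, minus strand) had 14.5, 11.3, 15.4 and 12.6 CPM in NFD, 46.0, 39.4, 17.9 and 98.5 in HFD and 20.7, 31.4, 29.4 and 3.39 in HFD+TUDCA. HFD lay above NFD without overlap, with HFD 3 closest to the NFD libraries. Zbp1 rose 3.77-fold (log2 fold change 1.91 ± 0.43, adjusted p = 0.0401), and without HFD 4 the log2 fold change was 1.33 ± 0.29 (adjusted p = 0.0372).

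Ifi204 (ENSMUSG00000073489, chromosome 1, 173747293 to 173766943, minus strand) had 11.8, 9.27, 12.8 and 8.41 CPM in NFD, 80.5, 23.9, 30.2 and 34.0 in HFD and 4.20, 9.17, 8.74 and 5.98 in HFD+TUDCA. Its neighbour Ifi205 (ENSMUSG00000054203, chromosome 1, 174011998 to 174031810, minus strand) had 11.2, 10.9, 11.9 and 7.25 CPM in NFD, 42.2, 23.9, 31.8 and 33.6 in HFD and 3.61, 6.95, 6.93 and 7.24 in HFD+TUDCA. In both genes HFD 1, not HFD 4, was the highest library, and HFD overlapped neither of the other groups. Ifi204 rose 4.04-fold (log2 fold change 2.02 ± 0.38, adjusted p = 0.0203), and Ifi205 rose 3.21-fold (1.68 ± 0.23, adjusted p = 0.00478). Leaving out HFD 4 gave log2 fold changes of 2.06 and 1.64. Of the distinct 50-base stretches in the transcripts of Ifi205, 49.6% were found also in another gene, mainly Ifi211, and of those of Ifi204 30.2%. Their counts were fractional in all 12 libraries, so the division of reads among the Ifi200 genes makes their single values uncertain. The RNA sensors of the RIG-I family did not pass, at log2 fold changes of 1.13 for Ifih1, which encodes MDA5, 0.47 for Ddx58, which encodes RIG-I, and 0.63 for Dhx58, which encodes LGP2. Without HFD 4 these were 0.63, 0.14 and 0.38.

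**Figure D2:**
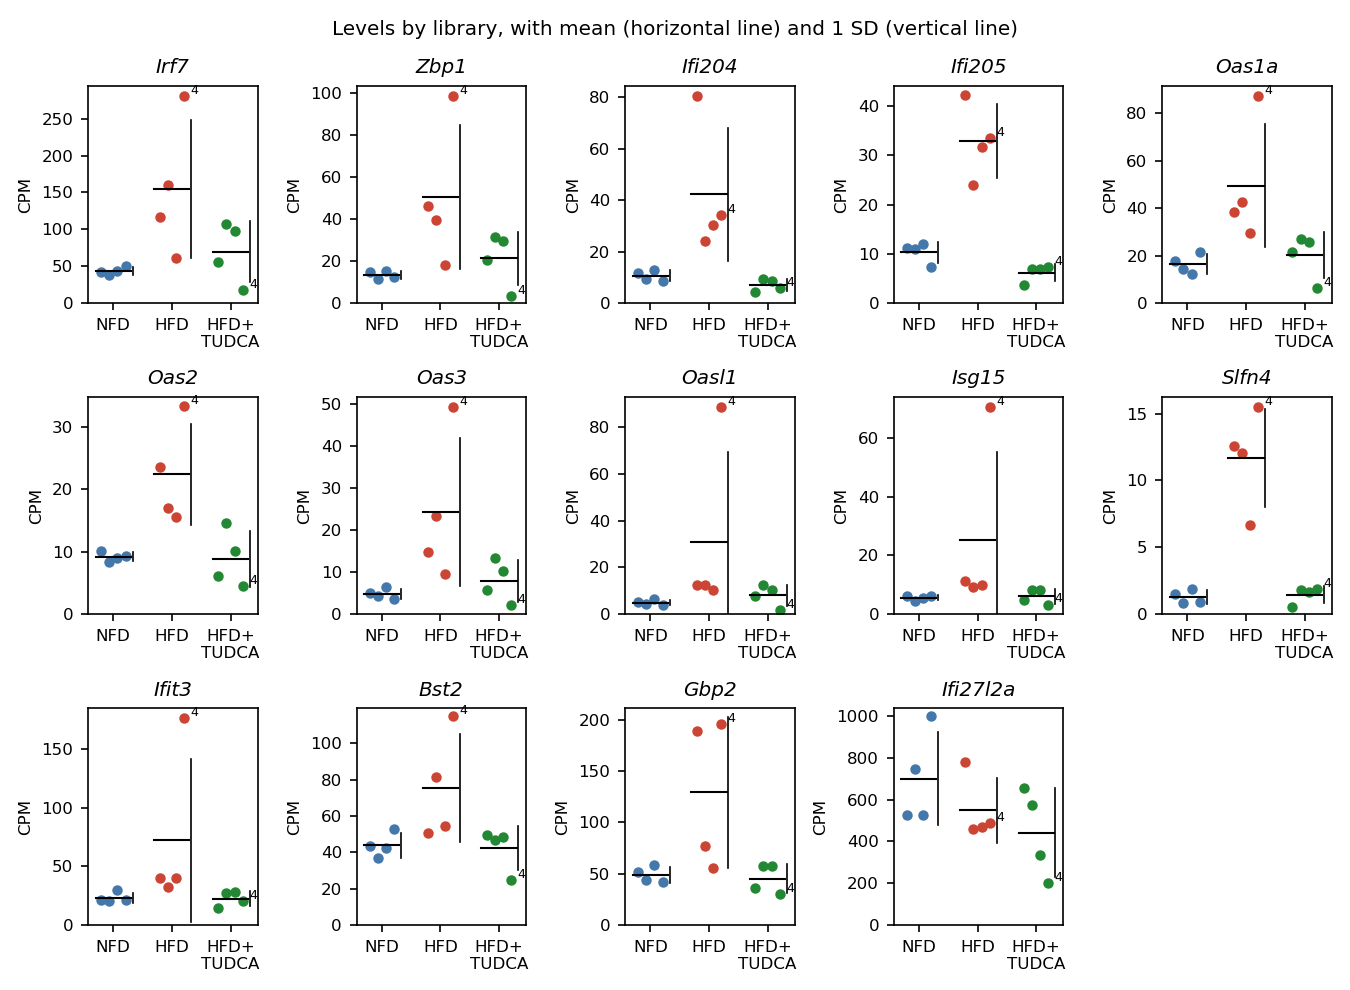
CPM (linear axis from 0) of the 10 interferon-stimulated genes called with or without HFD 4, and of 4 that lead the families without such a gene, in each library of NFD (blue), HFD (red) and HFD+TUDCA (green), with HFD 4 and HFD+TUDCA 4 marked by a 4. Horizontal lines are means and vertical lines 1 SD of 4 libraries. HFD lies apart from both other groups in Slfn4, Ifi204, Ifi205, Oas1a, Oas2, Isg15 and Ifit3.

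The oligoadenylate synthetases had 3 of 5 genes called. These enzymes, once bound to double-stranded RNA, make short chains of adenylate that activate the ribonuclease RNase L. Oas1a (ENSMUSG00000052776, chromosome 5, 120896256 to 120907521, minus strand) had 17.7, 14.2, 12.4 and 21.5 CPM in NFD, 38.4, 42.6, 29.7 and 87.5 in HFD and 21.4, 27.1, 25.9 and 6.28 in HFD+TUDCA. HFD overlapped neither other group, and the rise over NFD was 3.02-fold (log2 fold change 1.60 ± 0.33, adjusted p = 0.0277). Of the distinct stretches in the transcripts of Oas1a, of the same length as for Ifi205 above, 57.6% were found also in Oas1g. The counts of Oas1a are therefore uncertain in the same way.

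Oas2 (ENSMUSG00000032690, chromosome 5, 120730333 to 120749853, minus strand) had 10.05, 8.35, 8.94 and 9.36 CPM in NFD, 23.6, 17.0, 15.4 and 33.3 in HFD and 6.005, 14.6, 10.1 and 4.46 in HFD+TUDCA. HFD was apart from both groups, though HFD 3 and HFD+TUDCA 2 were close. Oas2 rose 2.45-fold (log2 fold change 1.29 ± 0.25, adjusted p = 0.0201). Oas3 (ENSMUSG00000032661, chromosome 5, 120753098 to 120777661, minus strand), whose promoter is printed above, had 4.92, 4.18, 6.33 and 3.47 CPM in NFD, 14.8, 23.3, 9.56 and 49.2 in HFD and 5.63, 13.3, 10.2 and 2.23 in HFD+TUDCA. It rose 5.14-fold over NFD (log2 fold change 2.36 ± 0.47, adjusted p = 0.0250), without overlap with NFD but with overlap with HFD+TUDCA. Without HFD 4 the log2 fold change of Oas3 was 1.72 ± 0.32 (adjusted p = 0.0205), that of Oas1a 1.14 and that of Oas2 1.00.

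Oasl1, a related gene whose mouse protein is known to limit translation of Irf7, passed the test without HFD 4 and not with it. It had 5.13, 4.33, 6.23 and 3.68 CPM in NFD, 12.5, 12.5, 10.4 and 88.6 in HFD and 7.71, 12.3, 10.2 and 1.72 in HFD+TUDCA. HFD lay above NFD without overlap, and HFD 4 was 7.08 times the median of HFD 1 to 3. All 4 libraries gave 2.68 ± 0.72 on the log2 scale, which did not pass (adjusted p = 0.0679), and HFD 1 to 3 gave 1.26 ± 0.22, which did (0.0167). Oasl2, at 1.06 on the log2 scale (0.62 without HFD 4), did not pass (adjusted p = 0.0837).

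The IFIT genes, whose proteins bind viral RNA that lacks host cap marks, had 0 of 4 called. Ifit3, the gene of this family with the highest mean CPM, had 20.99, 20.2, 29.8 and 21.5 CPM in NFD, 39.9, 32.4, 40.3 and 177 in HFD and 14.5, 27.7, 27.8 and 20.2 in HFD+TUDCA. Its HFD libraries were above all others, and HFD 1 to 3 were close together while HFD 4 stood far above them. The log2 fold change over NFD was 1.65 ± 0.53 (adjusted p = 0.113), and 0.67 without HFD 4 (0.0627). Ifit3 and Ifit3b share 51.2% and 45.0% of their distinct 50-base transcript stretches with other genes, mainly with each other. The 2 cannot be counted apart with certainty. Ifit1, shown for its outlying library and chosen after its values were seen, had 6.01, 2.17, 5.75 and 48.3 CPM in HFD against 2.19 to 3.15 CPM in NFD. HFD 2 lay just below the NFD range, and the log2 fold change, 2.46 ± 0.86 with all libraries (adjusted p = 0.141), was 0.69 without HFD 4. Ifit2 came closest of the 4, at 1.61 (adjusted p = 0.0539), and Ifit3b had 1.35. Without HFD 4 these were 1.14 (adjusted p = 0.0830) and 0.32.

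Isg15 encodes a small protein that is attached to other proteins like ubiquitin, and Usp18 the protease that removes it and dampens interferon signalling. Isg15 had 6.24, 4.43, 5.58 and 6.04 CPM in NFD, 11.2, 9.08, 10.03 and 70.5 in HFD and 4.62, 8.03, 8.26 and 3.24 in HFD+TUDCA. All 4 HFD libraries were above all 8 others, by a small margin in HFD 1 to 3. At 2.18 ± 0.67 the log2 fold change did not pass (adjusted p = 0.102), and without HFD 4 it was 0.83 ± 0.20 and passed (0.0488). For Usp18 the libraries HFD 1 to 3 had 11.7, 19.3 and 12.2 CPM against 11.8 to 14.7 CPM in NFD, and HFD 4 had 81.5 CPM. Here HFD overlapped NFD. Its log2 fold change was 1.21, and 0.07 without HFD 4.

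Of the antiviral effectors, Rsad2 encodes viperin, Cmpk2 a nucleotide kinase beside it on chromosome 12, and Bst2 tetherin, which holds budding virus at the cell surface. None of the 3 was called. Bst2, with the highest mean CPM of them, had 43.4, 36.7, 42.4 and 53.0 CPM in NFD, 50.6, 81.2, 54.5 and 115 in HFD and 49.6, 46.8, 48.4 and 24.6 in HFD+TUDCA. HFD overlapped NFD, and HFD+TUDCA lay below HFD, with its highest library at 49.6 CPM and the lowest HFD library at 50.6 CPM. The log2 fold changes over NFD were 0.79 for Bst2 (adjusted p = 0.112), 1.82 for Rsad2 (0.0982) and 1.36 for Cmpk2 (0.220). Without HFD 4 these were 0.47, 0.82 and 0.23.

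The guanylate-binding proteins and immunity-related GTPases, which attack membranes around microbes and respond mainly to interferon gamma, had 0 of 7 genes called. Gbp2, with the highest mean CPM, had 51.2, 43.6, 58.3 and 42.1 CPM in NFD, 189, 76.4, 55.2 and 196 in HFD and 36.1, 57.0, 57.7 and 29.8 in HFD+TUDCA. HFD 1 and HFD 4 were high, HFD 3 lay within the NFD range, and the log2 fold change was 1.42 ± 0.40 (adjusted p = 0.0782). The mean log2 CPM of the 7 genes minus that of NFD was 2.07, 0.47, -0.06 and 2.34 in HFD 1 to 4, whereas for the 4 IFIT genes it was 1.03, 0.17, 0.88 and 3.04 and for Isg15 with Usp18 0.41, 0.61, 0.36 and 3.12. Library HFD 1 was thus close to HFD 4 for the GTPases and far below it for the other 2 families. Iigp1, chosen after its values were seen, had 121, 11.6, 8.63 and 82.9 CPM in HFD against 7.18 to 13.4 CPM in NFD (log2 fold change 2.56 ± 0.82, adjusted p = 0.119). The other log2 fold changes were 2.27 for Gbp5, 1.61 for Igtp, 1.39 for Irgm1, 1.29 for Gbp7 and 0.73 for Gbp3. Without HFD 4 the log2 fold changes were 0.99 for Gbp5, 1.05 for Igtp, 0.91 for Irgm1, 0.98 for Gbp7, 0.66 for Gbp3, 1.11 for Gbp2 and 2.27 for Iigp1, and none passed.

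Slfn4, a Schlafen gene of mouse myeloid cells, had the lowest p of the 42 genes. Slfn4 (ENSMUSG00000000204, chromosome 11, 83175186 to 83190216, plus strand) had 1.48, 0.815, 1.91 and 0.893 CPM in NFD, 12.6, 12.03, 6.69 and 15.5 in HFD and 0.531, 1.77, 1.63 and 1.87 in HFD+TUDCA. The lowest HFD library was more than 3 times the highest of the 8 other libraries. Slfn4 rose 9.22-fold (log2 fold change 3.20 ± 0.37, adjusted p = 0.00246), and the log2 fold change was 3.00 ± 0.37 without HFD 4 (0.00426). At 0.347 ± 0.135 FPKM in NFD (a level per gene length) it was also the lowest of the 42 genes there, against 3.22 ± 1.10 FPKM in HFD. Slfn8 and Slfn5 did not pass, at log2 fold changes of 1.25 and 0.70, and of 0.48 and 0.51 without HFD 4.

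Of the remaining 8 interferon-induced genes none was called. Ifi27l2a, an interferon-induced gene of the ISG12 family, was by far the most abundant member per length, at 1577 ± 505 FPKM in NFD. It had 528, 748, 527 and 998 CPM in NFD, 781, 459, 470 and 487 in HFD and 657, 576, 337 and 199 in HFD+TUDCA. The groups overlapped, and this was the only one of the 42 genes with a negative log2 fold change in HFD against NFD (-0.34 ± 0.27, adjusted p = 0.538). Rtp4 (1.26, adjusted p = 0.0794), Trim30a (1.11, 0.0831) and Ifi44 (0.96, 0.0915) had HFD above NFD without overlap. Parp14 had a log2 fold change of 1.17, Parp9 0.78, Xaf1 0.57 and Ifi35 0.14. Without HFD 4 these were 0.28 for Parp14, 0.72 for Parp9, 0.27 for Xaf1 and -0.05 for Ifi35, and those of Rtp4, Trim30a and Ifi44 were 0.73, 0.78 and 0.73. Of the exonic bases of Ifi35 16.8% lie under a gene on the opposite strand, and the labels do not say that strand was used in counting.

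Within the HFD group the members of the list did not vary together in 1 way. HFD 4 was the highest HFD library for 34 genes and HFD 1 for the other 8, which were Ifi204, Ifi205, Gbp3, Gbp7, Iigp1, Slfn5, Ifi27l2a and Parp9. HFD 3 was the lowest for 26 genes, HFD 2 for 11 and HFD 1 for 5. In 29 genes HFD 4 was at least 2 times the median of HFD 1 to 3, with a median ratio of 2.74 over the 42 genes. The ratio was 8.41 for Ifit1, 7.42 for Gbp5, 7.13 for Iigp1, 7.08 for Oasl1 and 7.03 for Isg15, and among the genes that rose it was lowest at 1.29 for Slfn4, 1.13 for Ifi204 and 1.06 for Ifi205. These 3 were also the genes with the smallest change on leaving out HFD 4 among the 8 that rose. The mean log2 CPM of all 42 genes minus that of NFD was 1.18, 0.68, 0.37 and 2.19 in HFD 1 to 4.

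**Figure D3:**
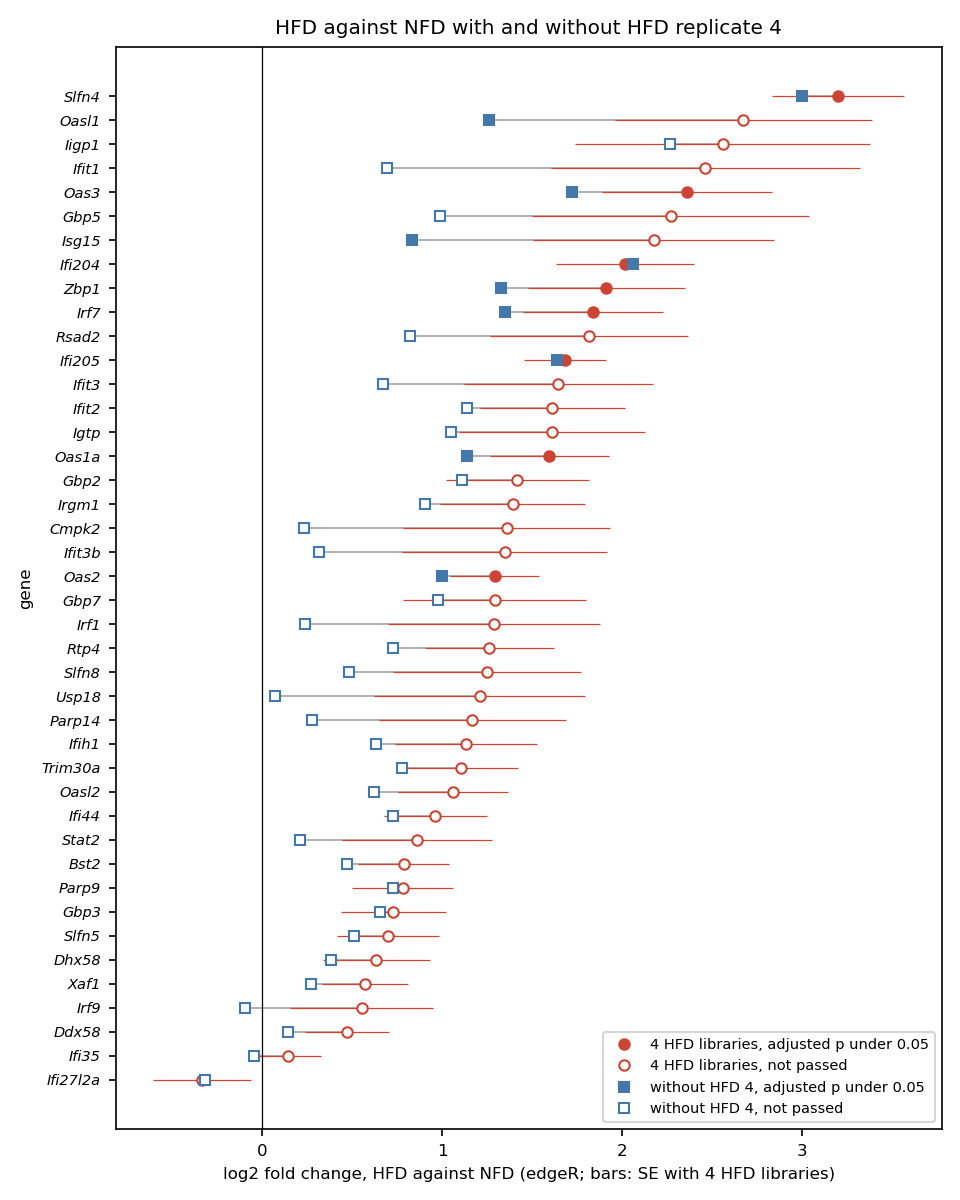
Log2 fold change of HFD against NFD for 42 interferon-stimulated genes, with all 4 HFD libraries (red circles, bars as SE) and without HFD 4 (blue squares), filled where the edgeR adjusted p was under 0.05. Genes such as Ifit1 (2.46 to 0.69), Usp18 (1.21 to 0.07) and Irf1 (1.29 to 0.24) move far to the left without HFD 4, while Slfn4, Ifi204 and Ifi205 hardly move.

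The comparison of HFD+TUDCA with HFD asked what the bile acid changed in mice on the high-fat diet. The measured log2 fold change was below 0 for all 42 interferon-stimulated genes, with a median of -1.30 against 0.00 over all genes tested, and 33 genes were at least 2-fold lower in the fit. None of the 42 genes passed the test, and neither did any of all 14587 genes tested (0% lower), while 29 of the 42 had an unadjusted p under 0.05 in the lower direction against 6.54% of all genes. In 12 genes every HFD+TUDCA library lay below every HFD library, against 4.78% of all genes: Ifi204, Ifi205, Oas1a, Oas2, Ifit2, Ifit3, Isg15, Bst2, Gbp3, Slfn4, Ifi44 and Parp9. This comparison shares its HFD libraries with that of HFD with NFD, so a high HFD library moves both.

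The lowest adjusted p-values belonged to Slfn4 (7.85-fold lower, log2 fold change -2.97 ± 0.43, adjusted p = 0.147), Ifi205 (5.22-fold, -2.38 ± 0.28, 0.147), Ifi204 (5.96-fold, -2.57 ± 0.44, 0.148) and Ifi44 (3.31-fold, -1.72 ± 0.29, 0.148). Ifi44, an interferon-induced gene, had 4.23, 2.34, 4.62 and 3.00 CPM in NFD 1 to 4, with a mean of 3.55 ± 1.06. In HFD its values were 6.56, 5.85, 5.55 and 9.51 CPM, and in HFD+TUDCA they were 1.43, 2.09, 2.41 and 2.18 CPM. The HFD libraries overlapped neither other group, and HFD+TUDCA overlapped NFD. These 4 genes were called lower in 1 fit of all 12 libraries, in which the groups share 1 estimate of spread (4 of 42 genes against 0.697% of all genes). DESeq2 called 11 of the 38 genes to which it gave an adjusted p lower, against 1.99% of all genes: the same 4 with Rsad2, Parp9, Gbp2, Gbp3, Ifit1, Ifit2 and Iigp1. It gave none to Cmpk2, Isg15, Oasl1 and Ifit3, in each of which HFD 4 is flagged below. The size of the difference for Irf7 was smaller, at 2.18-fold (log2 fold change -1.13 ± 0.57, adjusted p = 0.473), and its HFD and HFD+TUDCA libraries overlapped.

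Without HFD 4 no gene was called either (0% of all 14878 genes), the median log2 fold change of the 42 genes was -0.83, and 40 were below 0. At an unadjusted p under 0.05, 17 were lower, against 6.33% of all genes. The same 12 genes had no overlap, against 6.97% of all genes. That number too could not change, as HFD 4 was the lowest HFD library for 0 of the 42 genes. Values for Slfn4 (-2.83 ± 0.46), Ifi204 (-2.68 ± 0.48) and Ifi205 (-2.39 ± 0.31) stayed near those with all libraries, while that of Ifit1 moved from -2.90 to -1.21, that of Isg15 from -2.02 to -0.75 and that of Oasl1 from -1.92 to -0.57. Irf9 (0.10) and Usp18 (0.00383) were no longer below 0. Without HFD+TUDCA 4 alone, none of 14906 genes was called (0%), all 42 genes were below 0 with a median of -1.18, and 20 were lower at an unadjusted p under 0.05, against 9.33% of all genes. With both HFD 4 and HFD+TUDCA 4 left out, an alternative chosen after seeing the data, none of 14768 genes was called (0%), the median was -0.71 and 37 of the 42 genes were below 0.

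The comparison of HFD+TUDCA with NFD, which shares libraries with both others, placed treated mice against mice on the normal diet. The 42 genes lay on both sides of 0, with 18 above and 24 below and a median log2 fold change of -0.07 against 0.01 over all genes. None passed, where 0.10% of all 14942 genes were called higher and 0.0937% lower. DESeq2 called none of the 42 either, where it called 2.01% of all genes higher and 1.35% lower. Ifi205 (log2 fold change -0.74 ± 0.27, adjusted p = 0.309) and Ifi44 (-0.81 ± 0.31, 0.356) had an unadjusted p under 0.05, and none did in the higher direction. Within HFD+TUDCA replicate 4 was the lowest of its group for 27 genes and replicate 1 for 14, and replicate 2 was the highest for 21. The mean log2 CPM of the 42 genes minus that of NFD was -0.36, 0.30, 0.19 and -0.71 in HFD+TUDCA 1 to 4.

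HFD+TUDCA 4 was singled out by the values of these same genes, being the lowest of its group for 27 of the 42. Leaving out HFD+TUDCA 4 changed these calls. Irf7 (log2 fold change 0.98 ± 0.21, adjusted p = 0.0335), Zbp1 (0.99 ± 0.17, 0.0173) and Oasl1 (1.04 ± 0.23, 0.0386) were then called higher than in NFD, which is 3 of 42 genes against 2.77% of all genes. Each of these 3 genes was called in only 1 of the 8 fits that left out 1 library. Their HFD+TUDCA 1 to 3 libraries were all above the 4 NFD libraries, and HFD+TUDCA 4 was below them. The count over all genes changed with that library as well, from 29 called to 682, and to 140 without HFD+TUDCA 3. The median log2 fold change of the 42 genes without HFD+TUDCA 4 was 0.04.

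Genes upstream of the interferon-stimulated genes, and other interferon-induced genes, were counted from lists. In HFD against NFD the median log2 fold change was 0.41 over the receptor and JAK-STAT genes, 0.60 over sensor adaptors, kinases and IRFs, 0.70 over other interferon-induced genes and 0.67 over genes of antigen processing and chemokines, beside 0.04 over all genes and a background of 3.18% called higher. Without HFD 4 these medians were 0.27, 0.21, 0.46 and 0.45, beside -0.01 over all genes. Of 21 interferon ligand genes 16 had no count in any library and none was tested. Ifnb1, the gene of interferon beta, had 0.267 CPM in HFD 3 and 0.239 CPM in HFD 4, with no count in the other 10 libraries. Ifng, the gene of interferon gamma, had 0.306, 0.501, 0.0669 and 1.14 CPM in HFD 1 to 4, 0.102 to 0.201 CPM in NFD and at most 0.301 CPM in HFD+TUDCA. The value of Ifng in HFD 4 was the highest of the 12 libraries and Ifng held 57 counts in all, so these levels rest on few reads. No ligand gene passed the filter on low counts, and differences in ligand RNA were not tested.

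Of 16 receptor and JAK-STAT genes 1 was called in HFD against NFD, and it was Socs3, a feedback inhibitor of cytokine receptors that is induced mainly through STAT3. Socs3 had 12.98 to 22.4 CPM in NFD, 192, 157, 109.5 and 520 CPM in HFD and 26.9 to 42.4 CPM in HFD+TUDCA, and rose in HFD (log2 fold change 3.82 ± 0.49, adjusted p = 0.00458). Of 20 sensor adaptor, kinase and IRF genes 3 rose: Tlr7, an endosomal RNA receptor (1.23 ± 0.25, adjusted p = 0.0238), Irf5, which acts below such receptors (1.10 ± 0.24, 0.0320), and Trim25, a ubiquitin ligase of the RIG-I pathway (0.72 ± 0.16, 0.0377). The call of Socs3 was kept in 8 of 8 fits that left out 1 library, that of Tlr7 in 4, that of Irf5 in 3 and that of Trim25 in 1. Without HFD 4 the 3 called genes were Tlr7, Tlr8 and Irf5.

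Of 57 other interferon-induced genes 54 were measured and 6 rose in HFD. The 4 with the lowest p were the Ifi200 genes Ifi211 (log2 fold change 2.21 ± 0.41, adjusted p = 0.0186) and Ifi207 (2.06 ± 0.38, 0.0186), Ifitm3, which blocks virus entry (1.03 ± 0.20, 0.0215), and Oas1g (1.65 ± 0.33, 0.0230). Without HFD 4 there were 5. Ifi211 shares sequence with Ifi205 and Oas1g with Oas1a, as given above, and the block ended the call of Ifi211 (adjusted p = 0.0633). Of 22 genes of antigen processing and chemokines induced by interferon gamma 21 were measured and 1 rose, B2m, the light chain of MHC class I (0.70 ± 0.17, adjusted p = 0.0475, and 0.0644 with the replicate block). Cxcl10, a chemokine for T cells, was called in its place without HFD 4, and it had 13.5, 17.7, 9.83 and 313 CPM in HFD against 2.15 to 3.42 CPM in NFD. No gene of these pathway lists was called in either other comparison. The gene with the lowest p of each of these 4 lists in HFD+TUDCA against HFD was, in the order above, Socs3 (log2 fold change -2.83, adjusted p = 0.148), Tlr7 (-1.32, 0.169), Ifi207 (-2.11, 0.169) and B2m (-0.81, 0.237). The gene with the lowest p of each list against NFD was, in the same order, Socs3 (0.95, 0.129), Irf4 (-1.19, 0.208), Epsti1 (-0.82, 0.491) and Cd274 (0.45, 0.381).

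The aorta holds many cell types, and in bulk samples more cells of a type and more RNA per cell cannot be told apart. The 10 macrophage markers summed to 2338 to 3862 CPM in NFD, 6429 to 6650 CPM in HFD and 1491 to 4497 CPM in HFD+TUDCA, and 8 of 10 rose in HFD. Within HFD the macrophage sum was nearly level, with HFD 4 the lowest of the 4, where the interferon-stimulated genes were mostly highest. The 10 neutrophil markers summed to 127 to 450 CPM in NFD and 276 to 1289 CPM in HFD, highest in HFD 4. In HFD+TUDCA they summed to 67.8 to 556 CPM. Of the 10 markers 8 rose in HFD, and their median log2 fold change was 3.67 (2.94 without HFD 4). In HFD+TUDCA against HFD the median was -3.28 (-2.81 without HFD 4), and 0 passed. The sums overlapped between groups and do not show changes of this size. The 6 markers of Ly6C-high monocytes summed to 196 to 265 CPM in NFD, 287 to 873 CPM in HFD, highest in HFD 1, and 129 to 235 CPM in HFD+TUDCA, and 1 of 6 rose. Library HFD 1 was the highest HFD library for 8 of the 42 genes, Ifi204 and Ifi205 among them. HFD 2 had the next highest monocyte sum within HFD, 489 CPM, and was the lowest HFD library for both Ifi204 and Ifi205.

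T and NK cell markers had no gene called and summed to 220 to 305 CPM in NFD, to 85.9, 369, 74.6 and 410 CPM in HFD 1 to 4 and to 27.8 to 294 CPM in HFD+TUDCA. Markers of plasmacytoid dendritic cells, which are strong producers of type I interferon, summed to 89.5 to 178 CPM in NFD and 25.3 to 113 CPM in HFD. In HFD+TUDCA they summed to 15.6 to 217 CPM, and 0 of 6 were called in HFD against NFD. Without HFD 4, 2 of them, Siglech and Cox6a2, were called lower in HFD, where 324 of all 15109 genes were. All 6 heart muscle genes were called lower in that fit too. Within HFD+TUDCA this sum and that of heart muscle were both highest in HFD+TUDCA 3 and lowest in HFD+TUDCA 4. The part of heart tissue in these 6 markers was not tested. Erythroid markers summed to 15012 CPM in HFD 4 against 2938 to 5798 CPM in HFD 1 to 3, the highest sum of all 12 libraries. B and plasma cell markers summed to 448 to 736 CPM in NFD, 438 to 2449 CPM in HFD and 179 to 1611 CPM in HFD+TUDCA, and HFD+TUDCA 4 was the lowest of its group for the macrophage, monocyte, T and B cell sums. No marker of these lists was at 0 in all libraries of a group. The part of any of these cells in the levels of the interferon-stimulated genes was not tested.

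**Figure D4:**
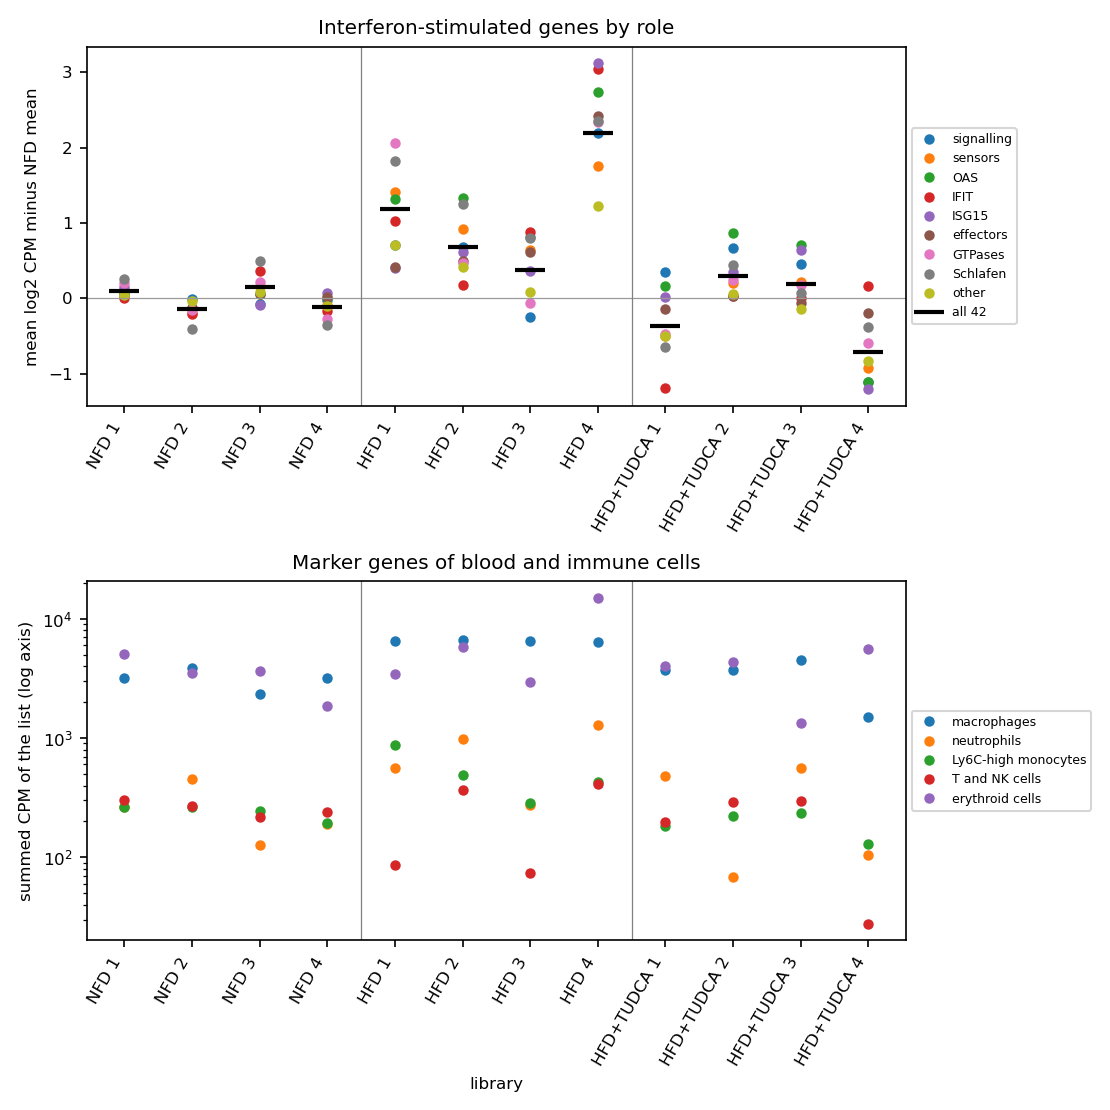
Top, mean log2 CPM minus the NFD mean for the 9 role groups of interferon-stimulated genes and for all 42 (black bars) in each library. Bottom, summed CPM (log axis) of marker genes of 5 blood and immune cell types in the same libraries, with macrophage sums of 6429 to 6650 CPM across HFD and an erythroid sum of 15012 CPM in HFD 4.

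By position, members of 1 family lie together: the 5 oligoadenylate synthetase genes are on chromosome 5, the 4 IFIT genes on chromosome 19, the 4 guanylate-binding genes on chromosome 3 and the 3 Schlafen genes on chromosome 11. Such neighbours arose as copies of each other. Of the 42 genes 10 shared at least 10% of their distinct 50-base transcript stretches with another gene, while 18 shared none. Among the 10, only Ifit3 and Ifit3b shared mainly with another member of the list. Gbp7, Igtp and Rtp4 overlap, on the same strand, the gene with which they shared most. Ifit3 and Ifit3b are therefore not independent of each other as measurements. The 42 genes were also all measured in the same 12 libraries, and are not independent of each other in that way either.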

How the data were processed

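Aorta RNA of 12 libraries (Trizol, oligo(dT) selection, NEBNext Ultra, per the labels' protocols) was assigned on GRCm38, per the submitters' processing notes, and the labels name DESeq2 for the authors' 2-group tests. For aligner, counter and annotation, no name is given in the sources used here. The authors deposited a count and an FPKM value per gene and library, per the file headers. These deposited values are taken to be expected counts (estimated counts), since 8.53% to 9.43% of values per library were not whole, and were rounded before testing.

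Each comparison used edgeR 4.0.16 in R 4.3.3 (quasi-likelihood test, robust, TMM, filterByExpr with a minimum count of 10 and total of 15) on its 2 groups, fitted and Benjamini-Hochberg adjusted over all genes, and calls needed an adjusted p under 0.05. Standard errors are the log2 fold change over the root of F. CPM used TMM factors of all 12 libraries, and log2 CPM a prior count of 2. Alternatives used DESeq2 1.42.0 and limma 3.58.1 on log2(FPKM + 1) and log2(FPKM + 0.1), a log2 scale on which low genes change less. Same-numbered HFD and NFD libraries deviated together (correlations 0.130 to 0.308 over genes, each above 0.1), so the replicate block is given beside calls it changes in that comparison, and the labels do not say what the numbers mark. Shared stretches and exon overlap came from GENCODE M21, matched by identifier for all 42 genes, and promoters from RefSeq. The scripts were tested on simulated data. Tables were made with pandas 2.3.3 and figures with matplotlib 3.10.9.

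The genes and lists were chosen with earlier results of these data known. Named with values in every library are the genes called with or without HFD 4 and, in a role group with none, the gene of highest mean CPM. Up to 4 called genes of a pathway list are named, or the 1 with the smallest p. Promoters are those of up to 6 genes with an ISRE match and the smallest p. The Ifit3 and Ifit3b proteins were to be shown and are not used here.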

Additional observations from a re-analysis of the deposited data

Results flagged for a closer look

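In 14 of 126 sets of 4 libraries (42 genes in 3 groups) the highest or lowest library stood apart, with a gap to its neighbour, as a share of the set's range, above Dixon's 95% critical value. Chance gives about 1 such set in 20. Of the 14, 9 came from HFD 4, and the genes are not independent of each other.

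HFD 4 stood above HFD 1 to 3 in Irf1 (419 CPM), Oasl1 (88.6 CPM), Ifit1 (48.3 CPM), Ifit3 (177 CPM), Ifit3b (33.03 CPM), Isg15 (70.5 CPM), Usp18 (81.5 CPM), Rsad2 (82.7 CPM) and Cmpk2 (95.5 CPM). The share of counts from mitochondrial genes was lowest of all libraries in HFD 4 (8.56%) and highest in HFD+TUDCA 4 (19.2%), and its part in these levels was not tested. HFD 1 stood above the other HFD libraries in Ifi27l2a (781 CPM). HFD+TUDCA 1 was lowest of its group in Ifi205 (3.61 CPM) and Ifit3b (1.70 CPM), and HFD+TUDCA 4 in Bst2 (24.6 CPM). NFD 3 was highest of its group in Ifit3 (29.8 CPM).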

How the results depend on the processing

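In HFD against NFD, DESeq2 called 19 of the 38 genes with an adjusted p higher, against 5.98% of all genes. The 1 fit of all 12 libraries called 4 of the 42 genes higher, against 403 of all 15204 genes. Limma called 5 on log2(FPKM + 1), against 320 of all 14918 genes, and 5 on log2(FPKM + 0.1), against 328. Leaving out 1 library gave 2 to 18, against 0.820% to 5.01% of all genes. In either direction, all genes called numbered 720, 1703 with DESeq2 and 178 to 1181 without 1 library. The split of all calls was 475 higher and 245 lower, 407 and 332 with upper-quartile scaling, and 320 and 416 or 328 and 381 with limma. In HFD+TUDCA against HFD, DESeq2 called 11 of the 38 genes with an adjusted p lower, against 279 of all genes (1.99%). The 1 fit of all 12 libraries called 4 of the 42 genes lower, against 106 of all genes (0.697%). In either direction these fits called 355 and 115 of all genes. In HFD+TUDCA against NFD all genes called numbered 29, 543 with DESeq2, 47 with limma on log2(FPKM + 1) and 4 to 682 without 1 library, and of the 42 genes 0 to 3 were called higher. On log2(FPKM + 0.1) the median of all genes shifted to -0.13 there, and that of the 42 genes was -0.24. The replicate block gave 6 called genes of the 42 in HFD against NFD and, in HFD+TUDCA against NFD, 8 of all genes. Same-numbered libraries deviated in opposite directions in HFD+TUDCA against HFD (correlations -0.461 to -0.238) and against NFD (-0.398 to -0.0341), so their numbers were not read as pairs.

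Directions reversed, with the cause not tested, in HFD against NFD without HFD 4 for Irf9 (-0.10, range without 1 library -0.0959 to 0.79) and Ifi35 (-0.0468, range to 0.26). In HFD+TUDCA against HFD without HFD 4 they reversed for Irf9 (0.10, range -0.73 to 0.0989) and Usp18 (0.00383, range from -1.35), and without both replicates numbered 4 for Irf9 (0.37), Irf1 (0.0865), Stat2 (0.10), Usp18 (0.31) and Ifi35 (0.0143). The median of the 42 genes in HFD+TUDCA against NFD reversed without HFD+TUDCA 4 (0.0434, range from -0.18). Depth allowed every gene of the list to be tested, but not the interferon genes themselves.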
